A study of Mus musculus with 10 samples.

Results

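The genes described here are those of the integrated stress response and of the mitochondrial stress response, read in the jejunum of mice whose intestinal epithelium expressed a yeast NADH dehydrogenase and in their control littermates. The members were chosen by gene name from the pathway driven by the transcription factor ATF4, from serine synthesis and from the mitochondrial chaperones and proteases. The rule itself uses names and no measured value, but the list was drawn up with earlier results of these data known. All 36 were found among the 45707 rows of the table. Of these, 33 passed the filter on low values (10 or more normalized counts in 5 or more mice), and Slc7a11, Gdf15 and Fgf21 did not.

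The study profiled bulk RNA from the jejunum of 5 Vil-Cre mice and 5 Vil-Cre:NDI1 mice, with 1 library per mouse. Villin-Cre, which both genotypes carry, drives recombination in intestinal epithelial cells, and in Vil-Cre:NDI1 mice it releases a transgene at the ROSA26 locus for the Saccharomyces cerevisiae enzyme NDI1, a single protein that oxidizes NADH. The mice were males from shared litters, 8 to 12 weeks old, and had been fasted for 16 to 18 h and given water, the vehicle, by gavage 1 h before the flushed jejunum was taken. The tissue was whole, so cells without Cre activity were read together with the epithelium. Values are normalized counts, that is, reads per gene divided by 1 size factor per library, and lists of 5 values run from mouse 1 to mouse 5 of a genotype.

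The integrated stress response starts with kinases that phosphorylate the translation factor eIF2α, each sensing a different stress. This slows protein synthesis in general while the messenger RNA of ATF4 is translated more, so that the amount of ATF4 protein need not follow the amount of its transcript. ATF4 and its partners of the C/EBP family then raise genes of amino acid synthesis, cystine uptake and stress feedback, and faults of the respiratory chain are known to engage this response through the protease OMA1. Mitochondria have in addition their own chaperones and proteases, which fold imported proteins and degrade damaged ones.

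The transgene followed the labels, with 982 to 2575 normalized counts of NDI1 in Vil-Cre:NDI1 mice and 0 in 4 of 5 Vil-Cre mice, the other having 1.00, which is 1 read. Libraries held 10145705 to 12371530 reads on genes. The markers of enterocytes were high in every library. Vil-Cre 5 stood apart, with the lowest enterocyte marker sum (386437, against 546180 to 757502 in the other mice). Part of its B and plasma cell markers were far above all other mice: Cd79a at 315 normalized counts (9.85 to 53.9 in the others), Cd79b at 258 (2.90 to 23.5) and Ighm at 834 (16.4 to 63.7). The rest of that list was within the range of the other mice: Mzb1 at 74.8 (26.1 to 82.9), Jchain at 1394 (1307 to 4383) and Igkc at 3359 (2530 to 11701). Of the 6 macrophage markers, Lyz2 was also far higher there (759, against 105 to 228), whereas the other 5 were not highest in that mouse. Of the members, 8 were highest in Vil-Cre 5 (Eif2ak4, Atf5, Nupr1, Asns, Psat1, Mthfd2, Slc7a11 and Cbs), and the fold change of each is also given without it. The part of this marker difference in those values was not tested. Of the 14 marker lists examined, which include other cell types of the gut wall, liver, pancreas and blood, 0 held a gene that passed the test between genotypes (limma, adjusted p under 0.05).

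Between genotypes, 0 of the 33 tested members passed the test. The adjusted p was 0.998 for each of them by limma on log2(value + 1), with Benjamini-Hochberg adjustment over 14301 genes and a threshold of 0.05. Over all genes the same rule called 0.00699%, which is NDI1 alone. At an unadjusted p under 0.05 there was 1 member, against 4.24% of all genes. DESeq2 and edgeR on the recovered reads also called 0 members, and gave 4 and 2 members respectively at an unadjusted p under 0.05. The 4.24% is from limma, and the share over all genes is not given for DESeq2 or edgeR. These counts therefore cannot be read as more or fewer than among all genes.

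The members were split in direction, 21 higher and 12 lower in Vil-Cre:NDI1 mice, and with libraries set to equal totals the split was 16 to 17. Without Vil-Cre 5, 24 were higher and 0 passed. Their median log2 fold change was 0.047, against 0.0052 over all genes tested. The groups did not overlap for 1 member, Clpp, which was lower, whereas 0.294% of all genes were lower and 0.406% higher without overlap. The 95% confidence interval lay within a 2-fold change in either direction for 25 of 33 members (75.8%, against 79.6% of all genes), so for these a change of 2-fold was outside the interval, and for the other 8 it was not. In bulk tissue, fewer cells of a type and less RNA per cell cannot be told apart in any of these values.

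**Figure D1:**
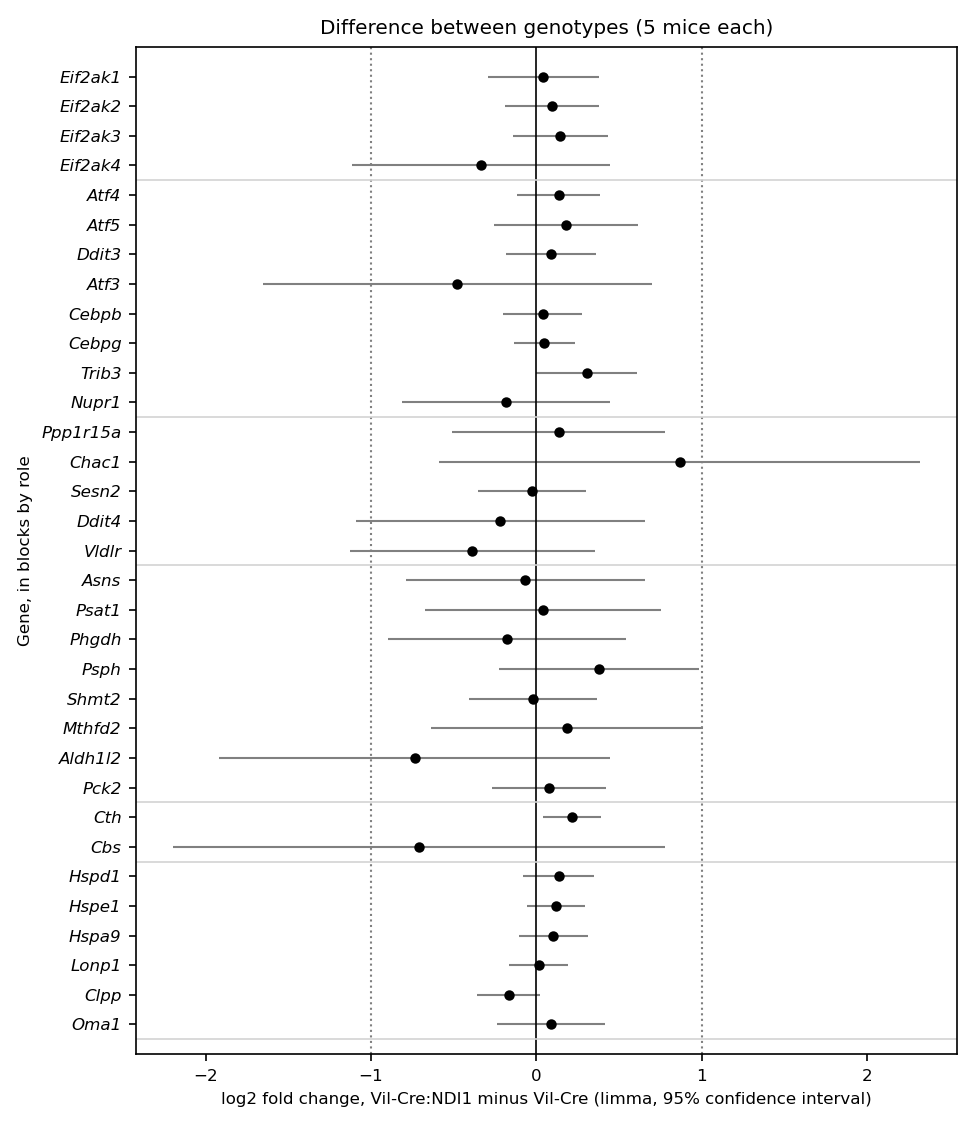
The log2 fold change of each tested member (Vil-Cre:NDI1 minus Vil-Cre, 5 mice each, on log2(normalized count + 1)) is plotted as a point with its limma 95% confidence interval, in blocks by role, and dotted lines mark a 2-fold change. All intervals but that of Cth include 0, and those of Chac1, Cbs, Aldh1l2 and Atf3 are the widest.

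Transcript levels per length spanned from mitochondrial chaperones at the top to genes with almost no reads. Divided by exon length in kilobases, Hspd1 had a mean of 730.0 ± 81.6 normalized counts per kilobase (SD, n = 10 mice), Atf4 685 ± 97.2, Ddit4 623 ± 259, Hspe1 553 ± 43.4 and Hspa9 530.0 ± 52.7. Neighbours among these 5 differed by less than their spread between mice, and the step down to Cebpb (304 ± 34.6) exceeded the SD of both. At the lower end, Gdf15 had 3.38 ± 1.51, Cbs 2.77 ± 3.67, Aldh1l2 2.76 ± 3.00 and Slc7a11 0.851 ± 0.895 normalized counts per kilobase, with SDs as large as or larger than the mean for the last 3. Fgf21 had no read in any mouse.

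**Figure D2:**
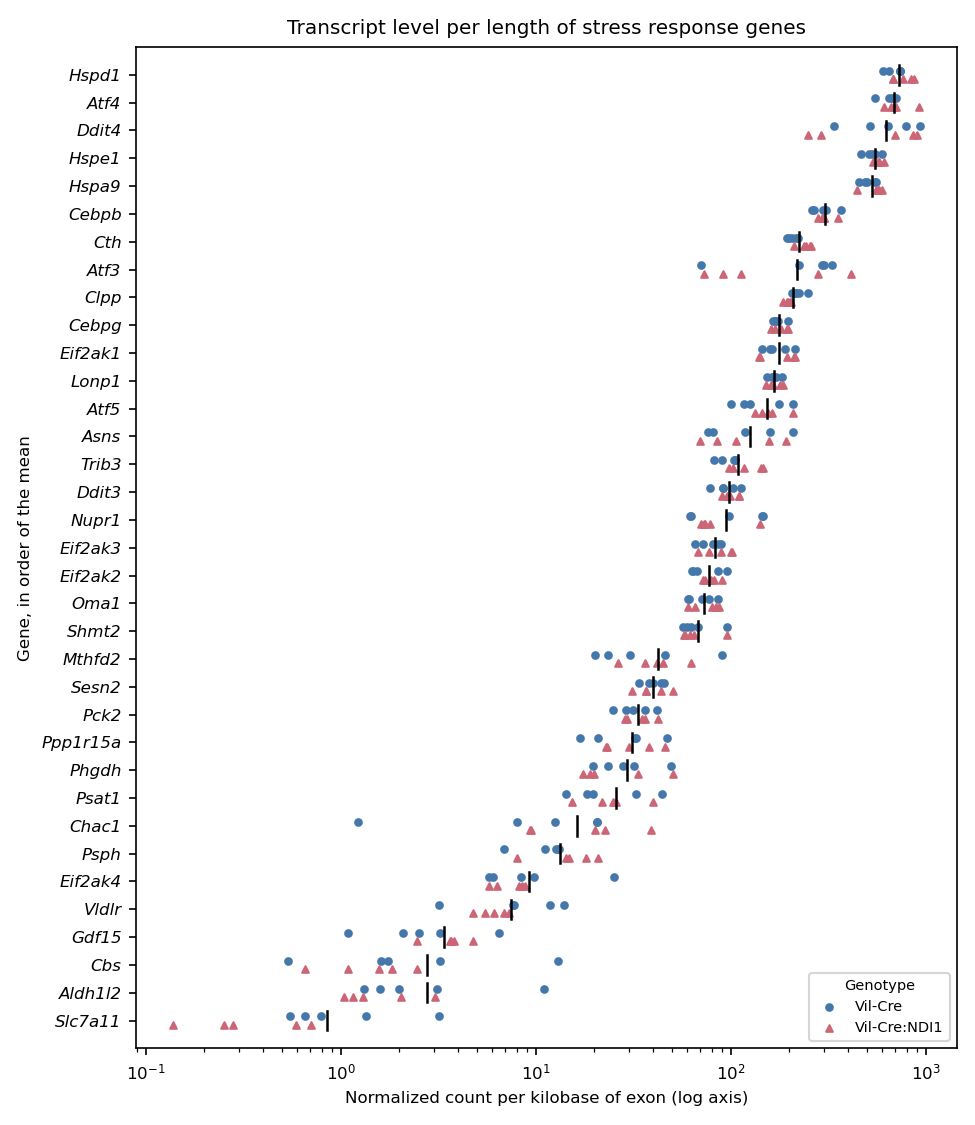
Normalized counts per kilobase of exon on a log axis are shown for the 35 members with a read, each mouse as a point (Vil-Cre circles, Vil-Cre:NDI1 triangles) and the mean of the 10 mice as a black bar. Levels fall from 730 for Hspd1 to 0.85 for Slc7a11, and the points of the genotypes lie among each other in nearly every row.

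A number of members share a short sequence at their promoters, the core of the composite element that C/EBP and ATF factors bind (TGATGNAA, or TTNCATCA on the opposite strand, with N for any base). In RefSeq promoter windows on GRCm38.p6, from 250 bases before to 50 bases after each start, 33 members had a window, and 9 of them (27.3%) held the element on either strand: Atf3, Trib3, Nupr1, Chac1, Vldlr, Asns, Pck2, Slc7a11 and Fgf21. Of all 27025 genes with a window, 4.51% held it. No other motif was searched for. The stretches below are shown because they include a pair that varied together between mice (Chac1 and Pck2) and the secreted factor without reads (Fgf21). They also include the cystine transporter, which held a second match in its lower-case part, and regulators of the pathway (Atf3 and Nupr1). Mthfd2 also varied together with Pck2, and its window held 0 matches. Whether the element goes with variation together between mice was not tested. Each stretch runs 5′ to 3′ in the direction of the gene, with the match in capitals.
Chac1, chr2:119351019-119351086, plus strand: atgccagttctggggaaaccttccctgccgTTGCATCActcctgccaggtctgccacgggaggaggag
Pck2, chr14:55540133-55540200, plus strand: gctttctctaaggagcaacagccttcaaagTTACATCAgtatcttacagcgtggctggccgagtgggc
Slc7a11, chr3:50443642-50443709, minus strand: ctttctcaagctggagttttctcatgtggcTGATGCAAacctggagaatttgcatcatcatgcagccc
Fgf21, chr7:45615592-45615659, minus strand: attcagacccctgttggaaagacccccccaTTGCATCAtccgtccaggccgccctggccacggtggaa
Atf3, chr1:191183406-191183473, minus strand: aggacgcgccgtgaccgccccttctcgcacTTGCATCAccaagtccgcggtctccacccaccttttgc
Nupr1, chr7:126625543-126625610, minus strand: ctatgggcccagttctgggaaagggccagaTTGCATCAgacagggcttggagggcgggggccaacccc
In these windows the match begins at position -193 from the start for Chac1, -103 for Pck2, -66 for Slc7a11, -139 for Fgf21, and -110 for both Atf3 and Nupr1. A match is a description of the letters, and no binding was measured.

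Transcripts of the eIF2α kinases overlapped between genotypes for each of the 4 genes. Eif2ak1 (HRI, which responds to haem lack and to mitochondrial faults; ENSMUSG00000029613, chr5:143817788-143904251) had 922, 897, 1206, 1076 and 817 normalized counts in Vil-Cre mice and 1199.8, 1205, 1100.0, 803 and 793 in Vil-Cre:NDI1 mice. Both genotypes held high and low mice, and the log2 fold change was 0.042 (limma, SE 0.15, unadjusted p = 0.79). Eif2ak2 (PKR, a sensor of double-stranded RNA) had 323, 441, 344, 487 and 328 in Vil-Cre mice and 405, 418, 462, 379 and 369 in Vil-Cre:NDI1 mice. The Vil-Cre:NDI1 mice lay inside the range of the controls, with a log2 fold change of 0.095 (limma, SE 0.13, unadjusted p = 0.479).

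Eif2ak3 (PERK, the kinase of the endoplasmic reticulum) had 538, 487, 518, 395 and 434 normalized counts in Vil-Cre mice and 608, 536, 616, 410.3 and 469.5 in Vil-Cre:NDI1 mice. Its values were mixed between genotypes, with a log2 fold change of 0.15 (limma, SE 0.13, unadjusted p = 0.294). Eif2ak4 (GCN2, a sensor of amino acid lack) was the least abundant of the kinases per kilobase, and had 42.98, 73.3, 45.1, 62.7 and 187 in Vil-Cre mice and 43.1, 47.4, 61.00, 65.6 and 63.4 in Vil-Cre:NDI1 mice. Vil-Cre 5 was far above all other mice. The log2 fold change was -0.33 (limma, SE 0.36, unadjusted p = 0.367), and 0.018 without Vil-Cre 5.

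Atf4 itself (ENSMUSG00000042406, chr15:80255184-80257541) was among the most abundant members. It had 1294, 1657, 1618, 1582 and 1526 normalized counts in Vil-Cre mice and 1626, 1573, 1662, 2185 and 1440.3 in Vil-Cre:NDI1 mice. Vil-Cre:NDI1 4 was the highest and Vil-Cre 1 the lowest, and the other 8 mice lay close together. The means were 1535 ± 143 and 1697 ± 285 (SD, n = 5 each), with a log2 fold change of 0.13 (limma, SE 0.11, 95% interval -0.12 to 0.39, unadjusted p = 0.262). These are transcript levels, and the protein was not measured here.

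Trib3, a pseudokinase that ATF4 and CHOP raise and that restrains them, had the second smallest p of the members. It had 192, 220.0, 224, 224 and 175 in Vil-Cre mice and 249, 208, 219.8, 303 and 312 in Vil-Cre:NDI1 mice. Vil-Cre:NDI1 1, 4 and 5 lay above every control, and the other 2 inside the control range. The means were 207 ± 22.5 and 258 ± 47.4 (SD, n = 5 each), a log2 fold change of 0.30 (limma, SE 0.14, unadjusted p = 0.051, adjusted p = 0.998), and it stayed between 0.23 and 0.40 over all alternatives.

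The other transcription factors differed less than their spread. Atf5, an ATF4-related activator of mitochondrial stress genes, ranged from 201 to 416 normalized counts over the 10 mice, with a log2 fold change of 0.18, and 0.32 without Vil-Cre 5. Ddit3 (CHOP, which links prolonged stress to cell death) ranged from 134 to 194 (0.088), and the partners Cebpb and Cebpg from 392 to 553 (0.037) and 905 to 1112 (0.047). Cebpb shares 20.7% of its exon length with the opposite-strand gene Tmem189 (mean 171 normalized counts). Cebpg was one of the steadiest members, with a residual SD at the 7.74th percentile of all genes tested.

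Atf3 and Nupr1 were the variable regulators. Atf3, a stress-induced repressor, had 632, 650.0, 484, 152 and 715 in Vil-Cre mice and 157, 197, 244, 604 and 893 in Vil-Cre:NDI1 mice. Vil-Cre 4 and Vil-Cre:NDI1 1 to 3 were low and the other mice high, so that both genotypes covered nearly the whole range. The log2 fold change was -0.48 with a 95% interval from -1.66 to 0.70, so neither a large fall nor a moderate rise was outside it. Nupr1, a small stress-induced chromatin protein, was high in Vil-Cre 2, Vil-Cre 5 and Vil-Cre:NDI1 4 (355 to 367) and lower in the other 7 mice (156 to 247), with a log2 fold change of -0.18, and -0.031 without Vil-Cre 5.

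Among feedback genes and effectors, Ppp1r15a, which brings the phosphatase to eIF2α, ranged from 49.5 to 139 normalized counts (log2 fold change 0.13). Sesn2, which signals amino acid lack to mTORC1, ranged from 109 to 176 (-0.026). Ddit4 (REDD1, an inhibitor of mTORC1 raised by stress and glucocorticoids) ranged from 436 to 1635 (-0.22), and Vldlr, a lipoprotein receptor, from 32.4 to 141 (-0.39). Each of these 4 genes overlapped between genotypes.

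Chac1, which degrades glutathione and is among the ATF4 targets most sensitive to stress, was scarce and moved widely between mice. It had 20.6, 33.9, 2.00, 13.1 and 33.99 in Vil-Cre mice and 37.2, 15.5, 32.9, 63.7 and 15.3 in Vil-Cre:NDI1 mice. Vil-Cre 3 had almost none and Vil-Cre:NDI1 4 the most, and the rest of the genotypes overlapped. The log2 fold change was 0.87 (limma, SE 0.66, unadjusted p = 0.217), and it was 0.26 without Vil-Cre 3.

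Genes of serine, one-carbon and amino acid synthesis varied strongly between mice of the same genotype and showed no common direction, 4 being higher and 4 lower. Asns, which makes asparagine, had 325, 434, 208, 222 and 568 normalized counts in Vil-Cre mice and 523, 191, 292, 431 and 234 in Vil-Cre:NDI1 mice. Vil-Cre 5 and Vil-Cre:NDI1 1 were high, and both genotypes also held low mice. Its log2 fold change was -0.067, with a 95% interval of -0.79 to 0.66, and it turned to 0.13 without Vil-Cre 5.

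The serine pathway runs through Phgdh, Psat1 and Psph. Phgdh, its first enzyme, ranged from 43.4 to 125 over the 10 mice, with a log2 fold change of -0.18. Psat1, the next enzyme, had 139, 84.3, 61.1, 77.9 and 189 in Vil-Cre mice and 109.8, 92.9, 107, 170.4 and 65.7 in Vil-Cre:NDI1 mice, and was high in Vil-Cre 5 and Vil-Cre:NDI1 4. The log2 fold change of Psat1 was 0.040, and 0.26 without Vil-Cre 5. Psph, the last enzyme and one of the 6 members with the smallest p, had 29.9, 48.2, 57.1, 56.6 and 55.4 in Vil-Cre mice and 90.2, 34.6, 78.4, 61.7 and 64.6 in Vil-Cre:NDI1 mice. Of the Vil-Cre:NDI1 mice, 4 lay above every control, and mouse 2 was above Vil-Cre 1 but below the other controls. The means of Psph were 49.4 ± 11.5 and 65.9 ± 20.9 (SD, n = 5 each), a log2 fold change of 0.38 (limma, SE 0.28, unadjusted p = 0.197). Psph shares 10.4% of its exon length with the opposite-strand gene Cct6a, whose mean was 937 normalized counts, and the strand setting of the counting is not given in the sources used here.

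In the mitochondrial folate branch, Mthfd2 had 107, 159.8, 70.1, 81.9 and 314 in Vil-Cre mice and 146, 127, 157, 218 and 92.7 in Vil-Cre:NDI1 mice. Vil-Cre 5 was the highest and Vil-Cre 3 the lowest. The log2 fold change was 0.19, and 0.51 without Vil-Cre 5. Shmt2, which splits serine into glycine and a carbon unit, was high in Vil-Cre 5 and Vil-Cre:NDI1 4 (297 and 299) and at 177 to 211 in all other mice, with a log2 fold change of -0.021. Aldh1l2, which oxidizes formyl folate, reached 82.9 in Vil-Cre 4 and 7.83 to 23.3 in the other 9 mice, with a log2 fold change of -0.74, and -0.25 without Vil-Cre 4. It shares 14.1% of its exon length with D10Wsu102e on the opposite strand (mean 135 normalized counts), and without a known strand setting the reads of the 2 genes cannot be told apart there.

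Pck2, the mitochondrial form of phosphoenolpyruvate carboxykinase, varied over a narrower range. It had 246, 285, 195, 227 and 328 normalized counts in Vil-Cre mice and 285, 229.6, 273, 332 and 224 in Vil-Cre:NDI1 mice. Vil-Cre 5 and Vil-Cre:NDI1 4 were again the highest, and Vil-Cre 3 the lowest. Its log2 fold change was 0.076 with a 95% interval of -0.27 to 0.42.

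Cth, cystathionine gamma-lyase, which forms cysteine in the transsulfuration pathway (ENSMUSG00000028179, chr3:157894248-157925077), had the smallest p of all members. It had 543, 554, 617, 575 and 601 normalized counts in Vil-Cre mice and 676, 590.4, 709, 723 and 662 in Vil-Cre:NDI1 mice. Of the Vil-Cre:NDI1 mice, 4 lay above every control and mouse 2 inside the control range. The means were 578 ± 31.2 and 672 ± 51.7 (SD, n = 5 each), a log2 fold change of 0.22 (limma, SE 0.080, 95% interval 0.040 to 0.39, unadjusted p = 0.0201, adjusted p = 0.998). It was higher in Vil-Cre:NDI1 mice under every alternative, by 0.15 to 0.26 on the log2 scale, and its lowest adjusted p over them was 0.201.

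Cbs, cystathionine beta-synthase, the step before Cth, had the largest spread of all members, at the 97.1th percentile of all genes. It had 24.3, 13.1, 12.02, 4.04 and 97.1 in Vil-Cre mice and 13.7, 8.20, 18.4, 4.90 and 11.7 in Vil-Cre:NDI1 mice. Vil-Cre 5 was far above all other mice, and the remaining values were mixed. The means were 30.1 ± 38.1 and 11.4 ± 5.17 (SD, n = 5 each), a log2 fold change of -0.71 (limma, SE 0.68, unadjusted p = 0.317), which was -0.11 without Vil-Cre 5. It was -1.18 without Vil-Cre 4, the lowest control, and -1.41 with DESeq2 and -1.42 with edgeR on all 10 libraries. On the 8 libraries without Vil-Cre 3 and Vil-Cre 4, DESeq2 gave -1.98 with an adjusted p of 0.0932, the lowest of any member under any alternative, and edgeR gave -1.996.

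Slc7a11, the cystine transporter xCT, was below the filter and was compared alone. It had 18.7, 7.66, 11.02, 9.10 and 44.7 normalized counts in Vil-Cre mice and 3.92, 8.20, 1.94, 9.79 and 3.52 in Vil-Cre:NDI1 mice, from 2 to 46 reads a library. Vil-Cre 5 was the highest, and the lower controls overlapped with Vil-Cre:NDI1 2 and 4. The means were 18.2 ± 15.4 and 5.47 ± 3.35 (SD, n = 5 each), a log2 ratio of the means of -1.74, with p = 0.0397 by a two-sided exact permutation test of this gene alone, not adjusted for other genes. Without Vil-Cre 5 the log2 ratio was -1.09 and the exact permutation test gave p = 0.0635. The test also missed 0.05 when any single Vil-Cre:NDI1 mouse was left out, and in the limma fit without a filter the adjusted p was 0.867.

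Of the secreted factors that report mitochondrial stress to other organs, Gdf15 (ENSMUSG00000038508, chr8:70629393-70632456) was close to the limit of detection. It had 4.67, 12.04, 6.01, 2.02 and 3.88 normalized counts in Vil-Cre mice and 6.86, 4.56, 6.78, 8.81 and 7.04 in Vil-Cre:NDI1 mice, which is 2 to 11 reads a library. The Vil-Cre:NDI1 mice lay inside the range of the controls, and the means of 5.73 ± 3.81 and 6.81 ± 1.51 (SD, n = 5 each) gave a log2 ratio of 0.25 with p = 0.595 by the two-sided exact permutation test. Fgf21 had 0 reads in all 10 libraries, and a count of 0 allows up to 3 reads, that is 2.73 to 3.52 normalized counts by library.

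The mitochondrial chaperones and proteases were steady between mice, and 5 of these 6 genes were higher in Vil-Cre:NDI1 mice without passing the test. With equal totals Lonp1 turned, leaving 4 of 6 higher. Their residual SD was at a median percentile of 10.4 among all genes, against 45.2 for all tested members and 81.9 for the serine and one-carbon group. The percentiles were not matched for level. Mean normalized counts ran from 157 (Oma1) to 2284 (Hspa9) for the chaperones and proteases, and from 20.7 (Aldh1l2) to 343 (Asns) for the serine and one-carbon group. The part of level in the spread was not tested. For all 6 chaperones and proteases the 95% interval was within a 2-fold change.

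Hspd1 and Hspe1 encode HSP60 and HSP10, which fold proteins as a pair, and start close together on opposite strands of chromosome 1. With 1 RefSeq start of Hspd1 the starts are 216 bp apart and the genes run away from each other. With the other the starts are 95 bp apart and the 5′ ends of the transcripts overlap. Hspd1 had 1962, 1707, 1605, 1954 and 1955 normalized counts in Vil-Cre mice and 2216, 1789, 2014, 2294 and 1789 in Vil-Cre:NDI1 mice. Hspe1 had 779, 685, 758, 809 and 877 in Vil-Cre mice and 839, 854, 852, 902 and 790.0 in Vil-Cre:NDI1 mice. For both genes, Vil-Cre:NDI1 4 was the highest mouse and the genotypes overlapped. The log2 fold changes were 0.13 (SE 0.098, unadjusted p = 0.196) and 0.12 (SE 0.080, unadjusted p = 0.164) by limma. Their exons share 112 bp on opposite strands, and processed pseudogenes of both are annotated, each with a mean of at most 4.30 normalized counts where the table lists it.

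Hspa9 (mortalin, the matrix HSP70) ranged from 1925 to 2576, with Vil-Cre:NDI1 5 the lowest of all and the other Vil-Cre:NDI1 mice above every control, at 2406 to 2576 against 1961 to 2386. Its log2 fold change was 0.10, and 0.18 without Vil-Cre:NDI1 5. The protease Lonp1 ranged from 663 to 809 (0.014), the smallest relative range of the members. Oma1, which passes mitochondrial stress to the kinase HRI, ranged from 129 to 188 (0.090).

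Clpp, the proteolytic subunit of the matrix protease ClpXP (ENSMUSG00000002660, chr17:56990305-56996188), had the smallest spread of all members, at the 2.16th percentile. It had 264, 260.5, 304, 275 and 252 normalized counts in Vil-Cre mice and 226, 251, 248, 238 and 241 in Vil-Cre:NDI1 mice. Every Vil-Cre:NDI1 mouse was below every control, with Vil-Cre 5 and Vil-Cre:NDI1 2 almost touching. The means were 271 ± 20.1 and 241 ± 9.48 (SD, n = 5 each), a log2 fold change of -0.17 (limma, SE 0.087, 95% interval -0.36 to 0.023, unadjusted p = 0.0786, adjusted p = 0.998). It was lower under every alternative, by a log2 fold change of -0.23 to -0.10.

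**Figure D3:**
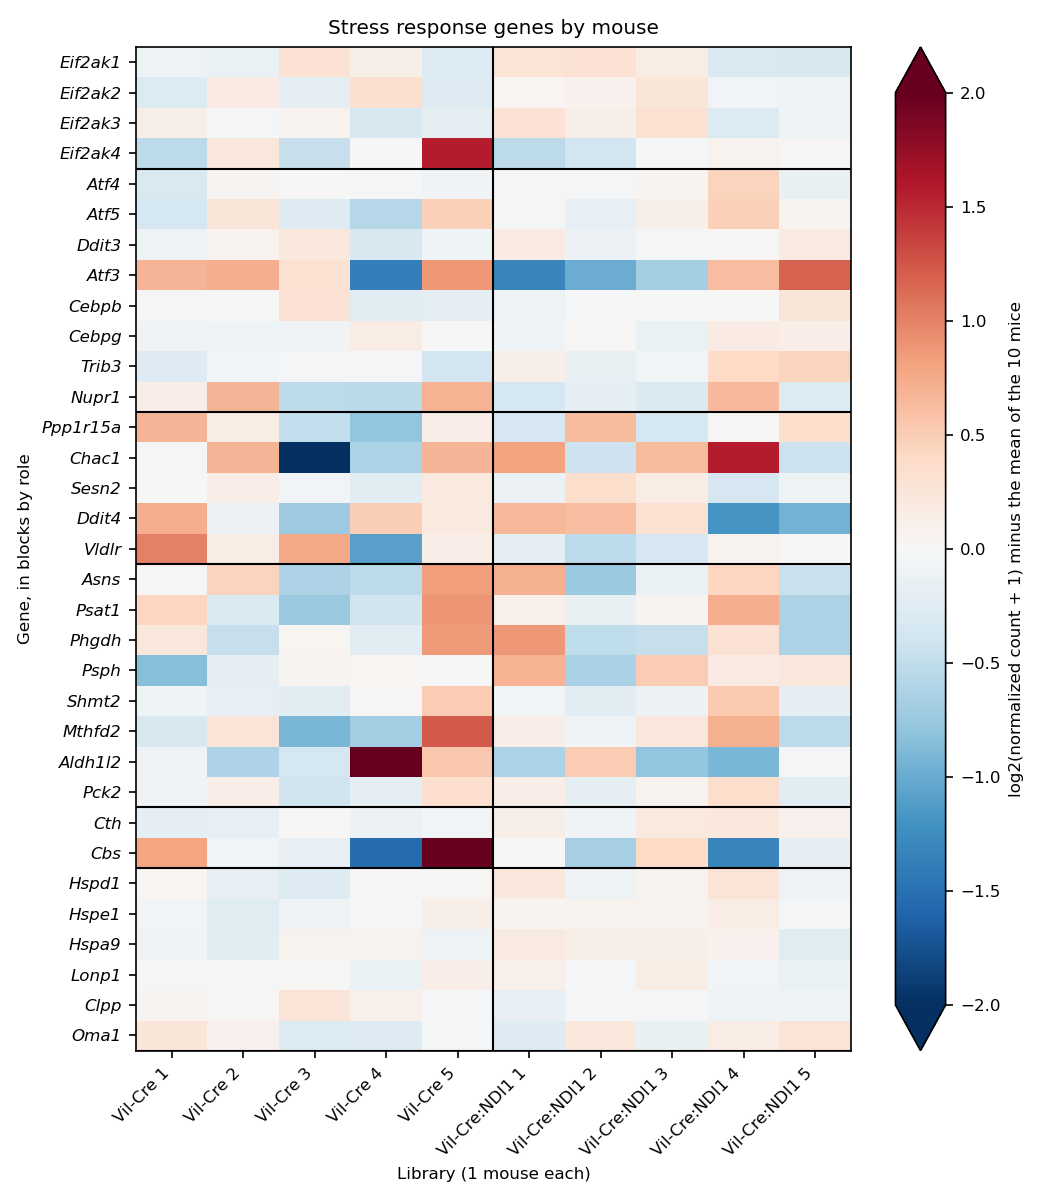
Each row is a tested member, in blocks by role, and each column a library. Colour gives log2(normalized count + 1) minus the mean of the 10 mice, with values past 2 in the end colours. The block of chaperones and proteases is pale throughout, whereas Atf3, Chac1, Aldh1l2, Cbs and the serine genes differ between mice of both genotypes.

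Members were also compared with each other across mice, to see which rose and fell together. Of 528 pairs of the 33 tested members, 2 were correlated at an adjusted p under 0.05 (Pearson, 10 mice, 100000 permutations, Benjamini-Hochberg over the pairs), and both include Pck2. Mthfd2 and Pck2 had r = 0.941 (permutation p = 9.5e-05, adjusted 0.0251; Spearman rho = 0.927, permutation p = 0.00039). Chac1 and Pck2 had r = 0.903 (permutation p = 4.5e-05, adjusted 0.0238; rho = 0.976, permutation p = 4e-05). An r of 0.903 or more occurred in 3 of 528 pairs of members (0.568%), and in 0.0621% of all gene pairs, while 0 member pairs and 0.0388% of all pairs were as strongly negative. This cutoff is the r of the weaker of the 2 called pairs, so both reach it by construction. The shares therefore describe the pairs and do not test for an excess among members.

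In both pairs r stayed high without the extreme mice, whereas passing the threshold depended on single mice. By Spearman, the adjusted permutation p was 0.0211 for Chac1 and Pck2 and 0.103 for Mthfd2 and Pck2. Without the 2 mice farthest from the median of Mthfd2 or of Chac1, r was 0.922 and 0.912, and for deviations from the genotype means it was 0.940 and 0.921. Leaving out each mouse in turn, r stayed between 0.923 and 0.961 for Mthfd2 and between 0.876 and 0.940 for Chac1, although the adjusted p missed the threshold for both without Vil-Cre 1 (0.0537), Vil-Cre 3 (0.0858), Vil-Cre 5 (0.0581 for Chac1 and 0.0906 for Mthfd2) or Vil-Cre:NDI1 4 (0.0990), and for Mthfd2 also without Vil-Cre 4, Vil-Cre:NDI1 3 or Vil-Cre:NDI1 5 (0.0502 to 0.0818). For Pck2 and Mthfd2 the mice at the top were Vil-Cre 5 and Vil-Cre:NDI1 4. For Chac1 they were Vil-Cre:NDI1 4 (63.7) and Vil-Cre:NDI1 1 (37.2), with Vil-Cre 5 (33.99) next. Vil-Cre 3 was at the bottom for all of these genes, so the order cut across genotype.

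The next pairs missed the threshold. Ppp1r15a and Oma1 had r = 0.917 (permutation p = 0.00032, adjusted 0.0563; rho = 0.867, permutation p = 0.00212), and passed with equal totals, where the adjusted permutation p was 0.0251. Asns and Pck2 had r = 0.886 (permutation p = 0.00115, adjusted 0.152; rho = 0.830, permutation p = 0.00487). For Atf5 and Mthfd2 r was 0.853 (permutation p = 0.00194, adjusted 0.187; rho = 0.879, permutation p = 0.00152), and for Psat1 and Mthfd2 it was 0.835 (permutation p = 0.00258, adjusted 0.187; rho = 0.782, permutation p = 0.0105). Without the 2 mice farthest from the median, r was 0.904, 0.875, 0.776 and 0.588 for these pairs in order, and the last of them therefore rests in part on Vil-Cre 5 and Vil-Cre:NDI1 4.

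**Figure D4:**
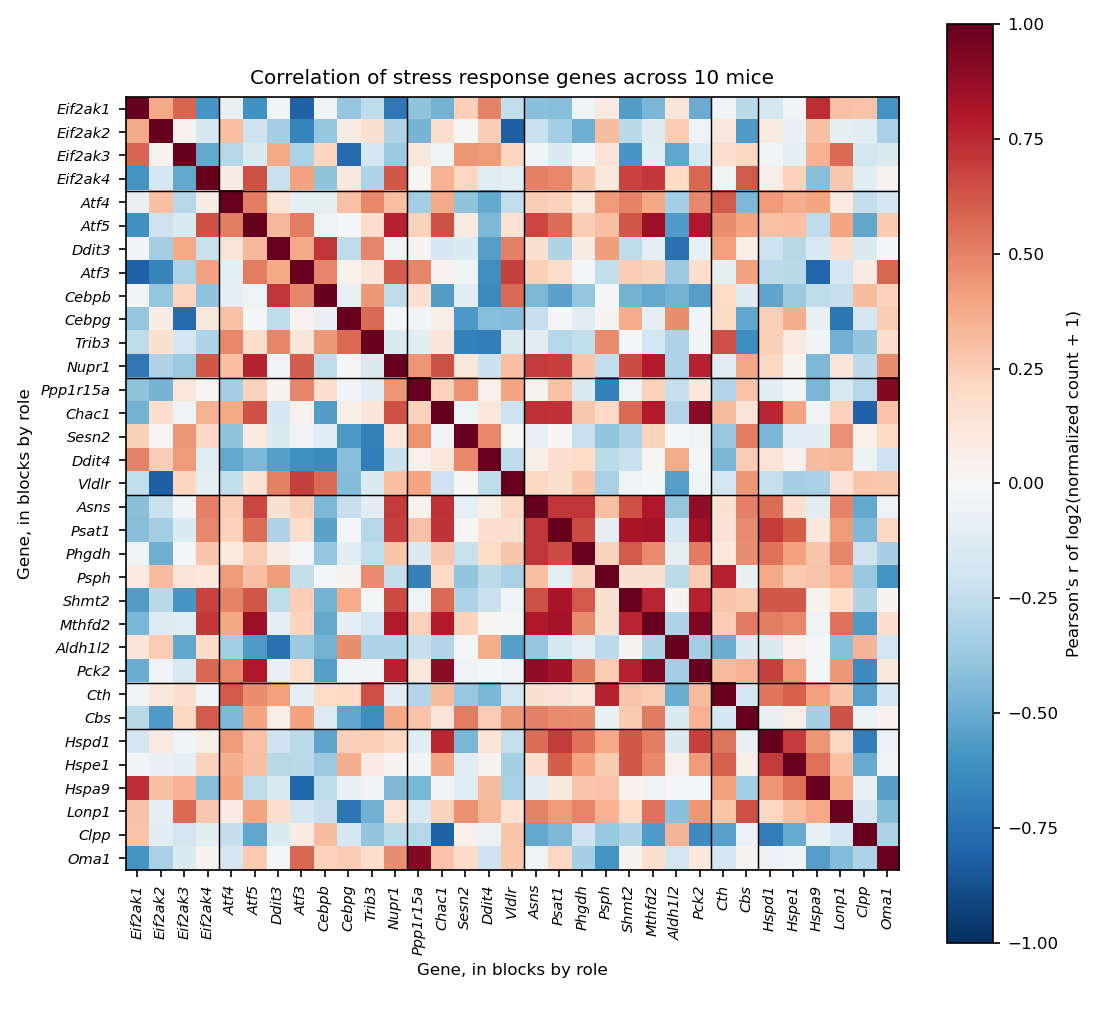
Pearson's r of log2(normalized count + 1) over the 10 mice is shown for each pair of the 33 tested members, in blocks by role. The block of Asns, Psat1, Shmt2, Mthfd2 and Pck2 is red, with Chac1, Atf5 and Nupr1 joining it, and the median r over all pairs is 0.042.

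**Figure D5:**
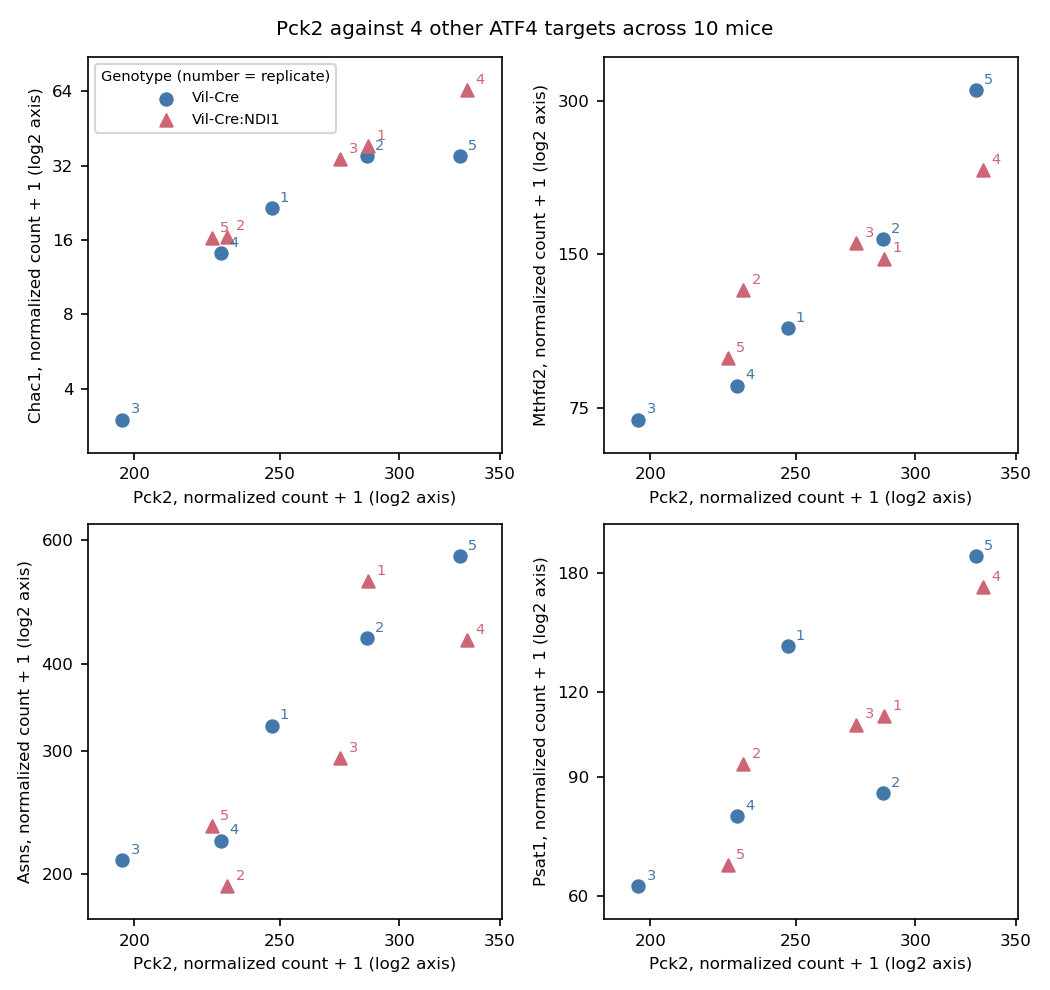
Pck2 is plotted against Chac1, Mthfd2, Asns and Psat1 as normalized count + 1 on log2 axes, each point a mouse (Vil-Cre circles, Vil-Cre:NDI1 triangles, with the replicate number). Vil-Cre 3 lies at the left and Vil-Cre 5 and Vil-Cre:NDI1 4 at the right of each panel, and points of both genotypes lie along the same band.

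Marker sums of cell types also differed between these mice. Enterocyte sums were 386437 to 629222 among controls and 579378 to 757502 among Vil-Cre:NDI1 mice, and Vil-Cre 5, high for the genes in the band, had the lowest enterocyte marker sum of all mice. Vil-Cre:NDI1 4 had the highest sums of crypt stem and progenitor markers (4709, against 2275 to 3878 in the others) and of Paneth markers (130413, against 36695 to 126361). Vil-Cre:NDI1 5, low for Asns, Psat1, Mthfd2 and Pck2, had the highest enterocyte sum (757502), the lowest progenitor sum (2275) and a low Paneth sum (42521). Vil-Cre 3, the lowest for Pck2 and Mthfd2, had 629222 for enterocytes, the highest among controls and below only Vil-Cre:NDI1 5. It was not at an end of the progenitor list (2978) or of the Paneth list (74177). Its smooth muscle sum was the highest of all mice (25195, against 11841 to 25034 in the others). The proliferation genes Top2a and Mki67 were highest in Vil-Cre 5 and Vil-Cre:NDI1 4, the mice at the right of that band. Top2a had 1137 in Vil-Cre 5 and 1101 in Vil-Cre:NDI1 4, against 605 to 785 in the others, and Mki67 had 1124 and 1155, against 588 to 1023. The other genes of the progenitor list did not peak in Vil-Cre 5. There, Lgr5 had 49.5 (31.7 to 135 in the other mice), Olfm4 755 (492 to 1715), Ascl2 39.8 (13.6 to 46.0) and Smoc2 459 (414 to 579). The progenitor sum of Vil-Cre 5 was 3564. All genes of the enterocyte, progenitor and Paneth lists were detected. Of the pancreatic acinar list, 4 of 10 genes were at 0 in all mice and 2 passed the filter. The part of cell makeup in the correlations was not tested.

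Outside the members, 90 further genes of the pathway in 7 lists were read in the same fit, of which 89 were tested and 0 passed by limma. There were 49 higher and 40 lower in Vil-Cre:NDI1 mice. By limma, 2 had an unadjusted p under 0.05, against 4.24% of all genes. The groups did not overlap for 0 of them, whereas 0.294% of all genes were lower and 0.406% higher without overlap. These counts are not a result about the lists. Of 18 aminoacyl-tRNA synthetases, which ATF4 raises as a group, 9 were higher and 9 lower, and Vars, for valine, had a log2 fold change of -0.35 (limma, SE 0.14, unadjusted p = 0.0265, adjusted p = 0.998), followed by Dars, for aspartate, at -0.22. Of 14 other ATF4 targets, 8 were higher and 6 lower, and the growth factor gene Vegfa had 0.28 (limma, SE 0.097, unadjusted p = 0.0153, adjusted p = 0.998), followed by Herpud1, of endoplasmic reticulum degradation, at 0.28.

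The other 5 lists held no gene at an unadjusted p under 0.05. Amino acid transporters gave 3 higher and 4 lower of 7 tested, the smallest p being those of Slc38a2 (log2 fold change -0.14) and Slc3a2 (0.13). The subunits of eIF2 and eIF2B with the kinase cofactors gave 6 and 6, led by Gcn1l1, the activator of GCN2 (-0.35), and Eif2b1 (0.21). Chaperones and sensors of the endoplasmic reticulum gave 10 higher and 5 lower, all between -0.22 and 0.095 on the log2 scale, led by the IRE1 sensor genes Ern2 (-0.22) and Ern1 (-0.16). Further mitochondrial proteases and chaperones gave 7 and 6, with Afg3l2, a subunit of the inner membrane m-AAA protease, at 0.15 (limma, SE 0.074, unadjusted p = 0.0670) and the import subunit Timm17a at 0.12. Further folate enzymes gave 6 and 4, led by Mthfd1l (0.43) and Tyms (0.44). Medians of the 7 lists lay between -0.023 and 0.073, against 0.0052 over all genes.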

How the data were processed

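Jejunal RNA sequencing libraries, 5 per genotype, were analysed, with samples grouped by their GEO labels. The authors trimmed the reads, aligned them to GRCm38 with the NDI1 sequence added, quantified genes and divided each library by its DESeq2 size factor, so the deposited unit is a normalized signal (normalized counts) rather than raw reads. The annotation release and the strand setting are not given in the sources used here. Reads were recovered by dividing by the smallest value above 0 of each library, and 100% of values came out whole (tolerance 0.1 read). In Vil-Cre 3 and Vil-Cre 4 that smallest value is too near 1 to be told from rounding, and read-based tests were therefore repeated on the other 8 libraries. No library duplicated another (chi-square of reads between replicates 13.2 to 61.9 per gene). Depth was 10145705 to 12371530 reads on genes per library. Floors cover counting error only.

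Genotypes were compared with limma 3.58.1 (R 4.3.3), fitted to log2(value + 1) with trended eBayes, over genes at 10 or more in at least 5 mice. A fold change on this scale understates that of low genes. P-values were adjusted by Benjamini-Hochberg over all 14301 genes. They set the difference between genotypes against the spread between mice of the same genotype, and litter was not in the model. Genes under the filter had an exact permutation test over the 252 assignments of the mice. Correlations were tested with 100000 permutations (Python 3.11.15, numpy 2.4.6). Exon lengths and coordinates are from GENCODE M21 on GRCm38, and promoters from RefSeq on GRCm38.p6. DESeq2 1.42.0 and edgeR 4.0.16 on the recovered reads called 31 and 1 of all genes, and 268 and 1 on 8 libraries. Other alternatives were pseudocounts of 0.1 and 8, no filter or a minimum of 50, equal totals, no variance trend, array weights, a replicate block and leaving out each mouse, the last with the gene set of all 10. The tests were tried on simulated data. Of the 9 matching promoters, the 6 that bear on the text are printed.

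The members, the further pathway lists and the marker lists were chosen with earlier results of these data known. All members are named. Full statistics are given for Atf4, Gdf15, the eIF2α kinases, the 6 members with the smallest p, any member called by an alternative (0), and those with the largest and smallest spread, and for the 6 pairs with the smallest p. In each of the 7 further lists, the 2 genes of smallest p are named. Same-numbered mice did not deviate together: the correlation of their deviations from the genotype means was -0.12 to 0.14 over the 5 numbers.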

Additional observations from a re-analysis of the deposited data

Results flagged for a closer look

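In 7 of 70 groups of 5 mice (35 members with a read, 2 genotypes), 1 mouse lay farther from the others than Dixon's critical value of 0.71 of the range allows. Chance would give about 3.5 if the values were normally distributed, but normalized counts were used here without a logarithm. The share over all genes is not given, so the count is not a result about the members. Of the 7, 3 were in Vil-Cre 5, the library with the lowest enterocyte marker sum and the highest Cd79a, Cd79b and Ighm. There, Eif2ak4 was at 187 normalized counts (43.0 to 73.3 in the other Vil-Cre mice), Shmt2 at 297 (177 to 211) and Cbs at 97.1 (4.04 to 24.3). Aldh1l2 was at 82.9 in Vil-Cre 4, against 9.85 to 23.3 in the others of its genotype. In Vil-Cre:NDI1 4, the library with the highest progenitor and Paneth marker sums, Shmt2 was at 299 (179 to 201) and Nupr1 at 355 (176 to 198). Hspa9 was low in Vil-Cre:NDI1 5, at 1925 against 2406 to 2576, in the library with the highest enterocyte marker sum. The part of cell makeup in these values was not tested.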

How the results depend on the processing

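Under every alternative run, 0 members passed between genotypes. Of the 33 tested members, 17 kept their direction throughout and 16 changed sign somewhere, never past the threshold. The count of all genes called was 2 with a minimum of 50 or array weights, 31 with DESeq2 and 268 with DESeq2 on 8 libraries. Leaving out single mice gave 1 to 3, the 3 without Vil-Cre:NDI1 5. The replicate block gave 1 gene and 0 members, and 1 of the 5 replicate numbers was matched best by its own partner. Members without overlap were 2 on 8 libraries (DESeq2 and edgeR settings) and 1 to 3 with each mouse left out, the 3 without Vil-Cre:NDI1 2. Smaller groups separate more easily by chance, and the share over all genes is not given for them. These counts are therefore not a result about the members. The median log2 fold change of members became -0.073 with edgeR on 8 libraries. The median spread percentile became 49.0 with a pseudocount of 8. Slc7a11 had -1.44 without a filter, and -2.05 to -1.09 with each mouse left out, losing its call without Vil-Cre 5 or any 1 Vil-Cre:NDI1 mouse. Correlated pairs were 1 by Spearman and 0 to 2 with each mouse left out. For deviations from the genotype means, Eif2ak3 and Cebpg (r = -0.92) joined the 2 pairs, and with equal totals Ppp1r15a and Oma1 took the place of Chac1 and Pck2. The cause of these changes was not tested.

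With equal totals, the log2 fold change was -0.021 for Eif2ak1, -0.025 for Cebpb, -0.015 for Cebpg, -0.022 for Psat1 and -0.049 for Lonp1. With array weights it was 0.041 for Sesn2 and -0.0033 for Psat1. On all 10 libraries, Psat1 had -0.017 with DESeq2 and -0.031 with edgeR. On 8 libraries, DESeq2 and edgeR gave -0.054 and -0.073 for Atf5, -0.23 and -0.24 for Ppp1r15a, -0.34 and -0.35 for Psat1, -0.38 and -0.40 for Mthfd2, -0.089 and -0.11 for Pck2, -0.014 and -0.033 for Lonp1, and -0.046 and -0.062 for Oma1. With each mouse left out, the range was -0.025 to 0.13 for Eif2ak1, -0.51 to 0.018 for Eif2ak4, -0.017 to 0.11 for Cebpb, -0.048 to 0.32 for Ppp1r15a, -0.12 to 0.056 for Sesn2, -0.43 to 0.049 for Ddit4, -0.25 to 0.13 for Asns, -0.14 to 0.26 for Psat1, -0.42 to 0.013 for Phgdh, -0.15 to 0.10 for Shmt2, -0.022 to 0.51 for Mthfd2, -0.015 to 0.17 for Pck2 and -0.021 to 0.051 for Lonp1.

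With 5 mice a genotype and this spread, a 2-fold change was not outside the interval for Eif2ak4, Atf3, Chac1, Ddit4, Vldlr, Mthfd2, Aldh1l2 and Cbs, and the reads of Gdf15 (at most 11 a library) and Fgf21 (0) limit any statement on them.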
